A study of Mus musculus with 36 samples.

Results

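The chromatin around Ppargc1a, Ppara and Esrrg, regulator genes of cardiac energy metabolism, was examined in sorted nuclei, labelled as cardiomyocyte-enriched, from the border zone of a mouse myocardial infarction and from sham-operated hearts. Members were all regions of the 9 deposited ATAC-seq region lists that overlapped chr5:51800000-52000000 (Ppargc1a), chr15:85530000-85670000 (Ppara) or chr1:189380000-190090000 (Esrrg) in mm9, whatever their values. These were 155 of the 122759 listed regions, 45 in the Ppargc1a window, 41 in the Ppara window and 69 in the Esrrg window. ATAC-seq uses a transposase to insert adapters into accessible DNA, and a tag is the unit of sequenced reads that the authors counted per region. The 6 libraries, all from FVB/N mice, were 1 of border zone, the spared muscle next to the infarct, and 1 of sham left ventricle for each time point, which was 4, 7 or 14 days from the operation. RNA-seq of a further 30 samples was not used here. Border zone and sham libraries of day 4 were labelled as PCM1-sorted nuclei from mice with a Cdh5-Cre; Sun1-sfGFP/- background. Cdh5 encodes the cadherin of endothelial cells, and PCM1 is a protein found around cardiomyocyte nuclei. Per the labels, these nuclei were sorted for GFP and then enriched for cardiomyocytes by a PCM1 pulldown. The mouse line named for day 4 marks endothelial cells and the pulldown cardiomyocytes, and which cells the day 4 libraries hold was not tested. Border zone and sham libraries of days 7 and 14 came from Myh6-MerCreMer; nTnG mice, in which a tamoxifen-dependent Cre under a cardiomyocyte promoter switches on a nuclear reporter. A CAG-Sun1/sfGFP line is also named for these days. These mice, infarcted and sham alike, had received tamoxifen at 20 mg/kg before surgery, and 50000 reporter-sorted nuclei were taken per sample. The labelled cell type was not checked against marker genes, because no mm9 annotation was used here.

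Ppargc1a encodes a transcriptional coactivator that binds nuclear receptors and drives mitochondrial biogenesis and oxidative metabolism. Ppara encodes a fatty acid-activated nuclear receptor that turns on genes of fatty acid uptake and oxidation, the main fuel pathway of the adult heart. Esrrg encodes an orphan nuclear receptor of the estrogen-related family that works with the coactivator on mitochondrial and contractile genes in heart muscle. The windows are not gene bodies. In RefSeq on GRCm38.p6, Ppargc1a spans 662 kb with all its annotated transcripts, so the 200 kb window covers part of it. Ppara spans 71.9 kb, 51.4% of its 140 kb window, and 9 further RefSeq genes lie close enough to it to share a window of that size. Of these, 4 are protein-coding (Cdpf1, Pkdrej, Ttc38 and Gtse1), and others include the microRNA genes Mirlet7b and Mirlet7c-2. Esrrg spans 606 kb, 85.4% of its 710 kb window. Which listed region lies at which start site or gene is therefore not established here.

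The sequences from 250 bases before to 50 bases after an annotated start (RefSeq, GRCm38.p6) are shown for 1 start of each gene. It is the first along the strand among the starts with a promoter sequence, and need not be the outermost start of the gene. Capitals mark matches, on either strand, to the core CGTCA of the cyclic AMP response element, the GC box GGGCGG, the AP-1 site TGANTCA and the MEF2 site (CTA and TAG with 4 bases between them).
Ppargc1a, chr5:51567676-51567975, minus strand: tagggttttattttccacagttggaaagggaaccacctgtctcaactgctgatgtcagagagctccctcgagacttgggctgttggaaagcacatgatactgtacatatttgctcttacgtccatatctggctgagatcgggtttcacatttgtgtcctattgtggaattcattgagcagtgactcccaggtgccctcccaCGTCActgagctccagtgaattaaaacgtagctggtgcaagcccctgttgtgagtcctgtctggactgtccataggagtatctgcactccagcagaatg
Ppara, chr15:85735526-85735825, plus strand: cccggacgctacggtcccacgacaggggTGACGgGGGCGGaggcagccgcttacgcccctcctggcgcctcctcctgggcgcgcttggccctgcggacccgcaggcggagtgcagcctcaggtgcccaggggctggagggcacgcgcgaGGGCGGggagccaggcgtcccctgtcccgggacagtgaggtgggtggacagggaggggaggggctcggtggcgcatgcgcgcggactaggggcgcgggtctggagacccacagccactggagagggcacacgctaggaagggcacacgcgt
Esrrg, chr1:187608756-187609055, plus strand: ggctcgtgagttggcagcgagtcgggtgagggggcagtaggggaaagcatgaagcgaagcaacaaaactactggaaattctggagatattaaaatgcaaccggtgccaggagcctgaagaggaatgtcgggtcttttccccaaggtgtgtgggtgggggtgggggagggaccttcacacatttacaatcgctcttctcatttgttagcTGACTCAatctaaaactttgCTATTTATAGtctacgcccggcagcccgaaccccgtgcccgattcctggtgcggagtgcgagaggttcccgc
The Ppargc1a sequence held 1 CGTCA match, beginning 49 bases before the start. The Ppara sequence held 1 CGTCA match, on the opposite strand, and 2 GGGCGG matches. The Esrrg sequence held 1 TGANTCA match beginning 42 bases before the start and 1 MEF2 match beginning 22 bases before it. Among 32851 RefSeq promoters of the same length, 20.8% held CGTCA, 35.7% GGGCGG, 7.81% TGANTCA and 3.69% the MEF2 site. The full response element TGACGTCA (1.79% of promoters) and the estrogen-related receptor core site AAGGTCA (4.72%) were in none of these 3 sequences. Their base composition differed widely, with 30 CpG dinucleotides and 74.7% G and C at Ppara, 15 and 54.0% at Esrrg, and 5 and 48.7% at Ppargc1a. The medians over all promoters were 7 and 52.7%. The RefSeq promoter table holds 4 starts for Esrrg and 1 each for Ppargc1a and Ppara. A match is a description of these letters, and the ATAC regions were not placed on these sequences.

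Listed regions carried 5470211 border zone and 5907384 sham tags at day 4, then 2743800 and 3858892 at day 7 and 10335627 and 13936013 at day 14. These are tags of listed regions and not the depth of the libraries, which is unknown here. In the deposited lists, border zone tags were scaled, except among the regions of day 4 that did not differ. The factors, a few per day, were read from the values, and how the authors chose them is not stated. Folds below are border zone over sham of the listed values. Their intervals are exact 95% binomial intervals of whole tags and cover counting error only. With 1 library per condition and day, nothing was tested within a day. Over all listed regions of a day, border zone over sham had median log2 ratios of -0.09, -0.14 and 0.03 at days 4, 7 and 14, and ratios of the 3 genes are read against these. In pooled nuclei, fewer nuclei of a type and less opening per nucleus cannot be told apart.

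On day 7 the 3 windows held no border zone-higher region and many sham-higher ones. The authors listed 0 of 41 regions as border zone-higher on that day, against 17.5% of all 34952 listed regions, and 18 (43.9%) as sham-higher, against 22.0%. A call needs a larger value of at least 50 tags on this day and a fold beyond the authors' threshold. Over the 3 days together, that threshold fell between 1.72 and 1.76 for scaled values in these windows. Of the 41 regions, 37 had fewer border zone than sham tags (90.2%, against 55.6% of all listed regions), and the median log2 ratio was -0.71. Counting intervals lay below 1 at 22 of the 36 places listed on day 7 (61.1%, against 32.4% of all 30985 such places), and above 1 at 0, against 26.6%. On day 4 the windows were close to the background or below it, with 3 of 71 regions border zone-higher (4.23%, against 12.2%) and 5 sham-higher (7.04%, against 7.37%). On day 14, 2 of 43 regions were border zone-higher (4.65%, against 13.4%) and 5 were sham-higher (11.6%, against 6.75%). Median log2 ratios were -0.06 and -0.28 at days 4 and 14. The border zone factor of day 7 moves these counts. With 1 factor per day that puts the median ratio of all listed regions at 1, 15 of the 41 regions of day 7 were sham-higher and 0 border zone-higher, against 16.2% and 21.0% of all listed regions. Regions of different days that overlapped were joined into places, called loci here, and 34 loci of the windows were listed on all 3 days, of 19733 in all. Of these 34, 16 (47.1%) were sham-higher on day 7, against 32.8% of all such loci, and 0 were border zone-higher, against 8.54%. On day 4 it was 1 sham-higher locus, against 5.07%, and 0 border zone-higher, against 6.92%. On day 14 it was 4 (11.8%), against 8.33%, and 2, against 7.15%. Border zone tags were fewer at 30 of the 34 on day 7, against 69.9% of all such loci, and at 26 on day 14, against 61.1%. Median log2 ratios of the 34 were -0.68 on day 7 and -0.30 on day 14, against -0.39 and -0.12 for all such loci. At least 1 day gave a sham-higher call at 18 of the 34, against 37.7% of all, and a border zone-higher call at 2, against 15.6%.

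**Figure D1:**
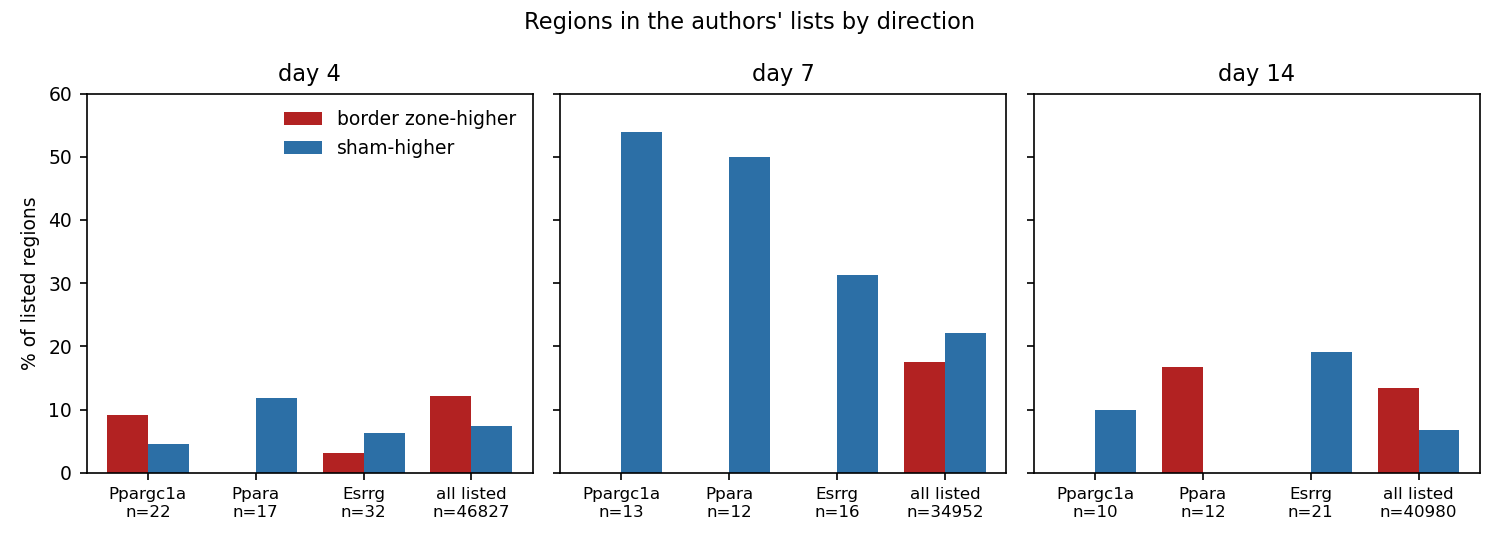
Percent of listed regions in the authors' border zone-higher (red) and sham-higher (blue) lists, for each gene window and for all listed regions, on days 4, 7 and 14. On day 7 no region of the 3 windows is border zone-higher, and sham-higher regions make up 53.8% at Ppargc1a, 50.0% at Ppara and 31.2% at Esrrg.

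Ppargc1a, the coactivator gene, had the lowest ratio of the 3 windows on day 7 and, as listed, close to equal tags on day 4. Its 22 regions of day 4, covering 29000 bp, summed to 3003 border zone and 2986 sham tags, a fold of 1.01 (0.956 to 1.06). Its 13 regions of day 7, covering 14000 bp, summed to 805 border zone and 1371 sham tags, a fold of 0.587 (0.533 to 0.647). Its 10 regions of day 14, covering 11500 bp, summed to 3006 and 3518 tags, a fold of 0.854 (0.810 to 0.901). As listed, the interval of day 4 held 1, and those of days 7 and 14 lay below 1. With the median factor of day 4 the fold of that day was 1.07 (1.017 to 1.126), an interval above 1. On day 7 all 13 regions had fewer border zone tags, and 7 were listed as sham-higher. On day 14 this was 1 of 10, and on day 4 it was 1 of 22, beside 2 listed as border zone-higher.

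The 7 sham-higher regions of day 7 were spread along the Ppargc1a window. The largest difference was at chr5:51927751-51928750, with 13.5 border zone and 64 sham tags (0.210-fold, 0.0963 to 0.413), lower than all but 0.180% of the listed regions of that day. The next was chr5:51867751-51869250, with 49.8 border zone and 170 sham tags (0.293-fold, 0.200 to 0.420). At the joined place chr5:51866251-51869250, border zone and sham tags were 304 and 337 at day 4, then 49.8 and 170 at day 7 and 226 and 389 at day 14. Border zone tags were thus fewer on every day, within counting error on day 4 (0.902-fold, 0.770 to 1.06) and beyond it on day 14 (0.582-fold, 0.482 to 0.700). It was also the widest region of the window, at 3000 bp on day 4. Days 7 and 14 list 1500 and 1000 bp of this place, so its values do not cover the same bases on the 3 days. At chr5:51982251-51984250 the tags were 441 and 419, 78.1 and 154, and 346 and 550 for border zone and sham on days 4, 7 and 14. Here the authors called sham higher on both days 7 and 14, while on day 4 the fold was 1.05 (0.919 to 1.21). The adjoining place chr5:51985751-51987750 had 392 and 397, 178 and 183, and 625 and 603 tags. Its folds of 0.987, 0.972 and 1.04 all had counting intervals that held 1.

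The place with the most tags in the Ppargc1a window was chr5:51942751-51945750, with 438 border zone and 513 sham tags at day 4, then 310 and 446 at day 7 and 846 and 875 at day 14. Its folds were 0.854 (0.750 to 0.972), 0.695 (0.590 to 0.816) and 0.967 (0.871 to 1.07), and the authors called 1 region of it sham-higher on day 7. The border zone-higher regions of day 4, chr5:51844751-51845750 and chr5:51936251-51937250, had 37.2 and 17, and 65.0 and 31 border zone and sham tags. Both rest on few tags, and neither was listed on day 7 or 14. The 1 sham-higher region of day 4, chr5:51933251-51934250, lay close to the second of them and had 18.6 border zone and 38 sham tags.

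Ppara, the fatty acid receptor gene, had folds that split by position in its window. The 17 regions of day 4 summed to 2082 border zone and 2352 sham tags (0.885-fold, 0.834 to 0.940). The 12 of day 7 summed to 1399 and 1754 (0.798-fold, 0.738 to 0.862), and the 12 of day 14 to 4277 and 4508 (0.949-fold, 0.906 to 0.993). The day 7 sum rests on 1 region. The log2 ratio of that day was -0.33 with it and -0.63 without it. They covered 23000, 15500 and 16500 bp. The authors listed 2, 6 and 0 of them as sham-higher at these days, and 0, 0 and 2 as border zone-higher.

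The 4 places at the low-coordinate end of the Ppara window, chr15:85529751-85543750, together held border zone tags at or above those of sham. This end was chosen with its values in view, so the split is a description. Summed over it, border zone and sham tags were 614 and 598 at day 4 (1.03-fold, 0.916 to 1.15), then 998 and 955 at day 7 (1.05-fold, 0.948 to 1.15), and 1706 and 1272 on day 14 (1.34-fold, 1.24 to 1.45). Over the rest of the window, chr15:85546251-85639750, they were 1468 and 1754 (0.837-fold, 0.780 to 0.898), 401 and 799 (0.502-fold, 0.438 to 0.575), and 2571 and 3236 (0.794-fold, 0.750 to 0.841). All 4 places at the low end had more border zone tags on day 14, and all 6 places of the rest had fewer on day 7. Both border zone-higher regions of day 14 lay at the low end. These were chr15:85533751-85534750, with 156 border zone and 87 sham tags (1.80-fold, 1.35 to 2.40), and chr15:85540751-85541750, with 180 and 81 (2.22-fold, 1.67 to 2.96). The second belongs to a place of 3.5 kb, of which day 14 lists this 1 kb alone, so its day 14 value does not cover the same bases as those of days 4 and 7.

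In the rest of the Ppara window, the place with the most tags was chr15:85554251-85556250. Border zone and sham tags there were 349 and 486 at day 4, then 92.9 and 237 at day 7 and 581 and 898 at day 14. Border zone was lower on every day beyond counting error, with a fold of 0.718 (0.624 to 0.826) on day 4, of 0.392 (0.295 to 0.515) on day 7 and of 0.647 (0.575 to 0.727) on day 14. At chr15:85628751-85629750 the tags were 136 and 188, 37.7 and 106, and 300 and 483, and the folds were 0.723, 0.356 and 0.622. This place too was lower in the border zone on each day, and the authors called it on day 7. The place chr15:85546251-85549250 was called sham-higher on days 4 and 7, through regions of 1000 bp that made up part of it. Its summed folds were 0.794, 0.643 and 1.15, so border zone tags exceeded sham tags on day 14.

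Esrrg, the estrogen-related receptor gene, had fewer border zone than sham tags on all 3 days as listed, with the lowest summed fold of the 3 windows on day 14. Its 32 regions of day 4 summed to 3781 border zone and 4195 sham tags (0.901-fold, 0.862 to 0.942), which the median factor of the day turns into 0.960-fold (0.918 to 1.003). The 16 of day 7 summed to 951 and 1354 (0.702-fold, 0.640 to 0.770), and the 21 of day 14 to 4181 and 5562 (0.752-fold, 0.719 to 0.786). They covered 43000, 17500 and 22500 bp. On day 14, 19 of the 21 regions had fewer border zone tags, and 4 (19.0%) were sham-higher, against 6.75% of all listed regions. On day 7 the numbers were 15 of 16 and 5, and on day 4 they were 19 of 32 and 2, with 1 border zone-higher region. That region, chr1:190038751-190039750, had 51.7 border zone and 24 sham tags and lay 96.0 kb beyond the next listed one. Regions were sparser here than in the other windows, with 4.79 listed places per 100 kb, against 11 at Ppargc1a and 10.7 at Ppara.

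The place chr1:189834251-189835750 had 133 border zone and 216 sham tags at day 4, then 22.9 and 58 at day 7 and 136 and 234 at day 14. Its folds were 0.616 (0.492 to 0.768), 0.395 (0.216 to 0.687) and 0.580 (0.454 to 0.737), below 1 beyond counting error on every day. At chr1:189821251-189822750, 11.5 kb away, tags were 241 and 338, 86.2 and 103, and 226 and 456, so day 14 had the lowest fold there, 0.496 (0.413 to 0.594). The place chr1:189485751-189486750 was called sham-higher on days 7 and 14, with 103 and 154, 47.1 and 87, and 230 and 414 tags (0.669, 0.542 and 0.556-fold). Other sham-higher regions of day 14 in the first part of the window were chr1:189433251-189434250, with 103 border zone and 184 sham tags, and chr1:189468751-189469750, with 137 and 256. The widest region, chr1:189473251-189477250 with 4000 bp on day 4, had 376 and 461, 99.7 and 88, and 313 and 311 tags. As listed, border zone was lower beyond counting error on day 4 alone (0.816-fold, 0.710 to 0.937). With the median factor of that day the interval ended at 0.999. Days 7 and 14 list 1000 and 2000 bp of this place, so its values do not cover the same bases on the 3 days. The place with the most tags, chr1:189659751-189661750, had 368 and 440, 151 and 242, and 710 and 912 tags, with folds of 0.836, 0.623 and 0.779. It was called on no day. Its intervals lay below 1 on days 7 and 14, while that of day 4, from unscaled border zone tags, ended at 0.963 as listed and at 1.03 with the median factor of the day.

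**Figure D2:**
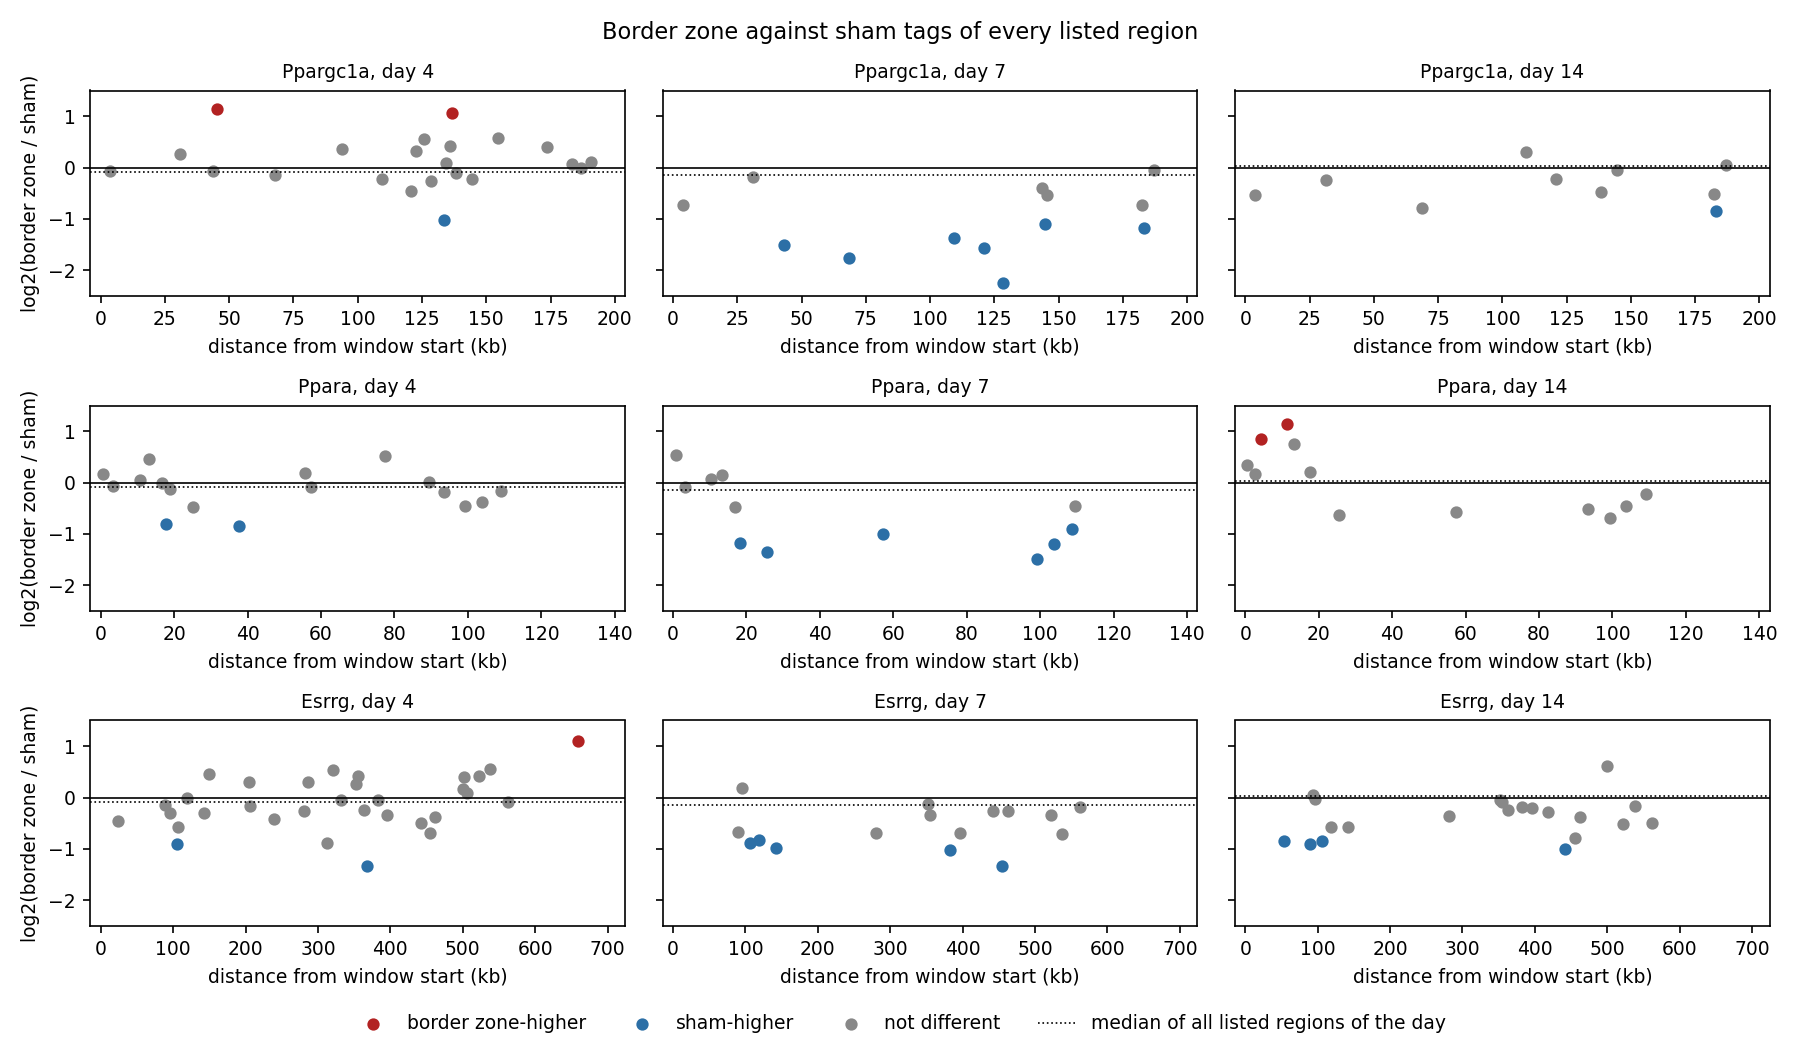
Log2 ratio of border zone to sham tags of every listed region (points) against its distance from the start of the gene window in kb, by gene and day; colours give the authors' list, and the dotted line is the median of all listed regions of the day. On day 7, 37 of the 41 points lie below 0, and at Ppara the 4 points of the first 15 kb lie above the others of that day.

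Members close to the threshold show how calls depend on it. The sham-higher regions nearest to it were 1.76-fold higher in sham on day 4 at Ppara and 1.77-fold on day 7 and 1.79-fold on day 14 at Esrrg. Regions left uncalled reached 1.72-fold on day 14 at Ppargc1a and at Esrrg, and 1.85-fold on day 4 at Esrrg in a list whose border zone tags are unscaled. On day 14 border zone tags were fewer in 33 of the 43 regions (76.7%, against 48.2% of all listed regions), of which 5 were called.

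The conditions were also compared over the 3 days together. The test used the whole tags of loci listed on all 3 days, with day as a block. In these windows 34 of 71 loci entered it, 8 at Ppargc1a, 10 at Ppara and 16 at Esrrg. The other 37 were listed on fewer days. With p adjusted over all 19733 loci (edgeR quasi-likelihood, Benjamini-Hochberg), 2 of the 34 were lower in the border zone at a false discovery rate of 5%, against 2.32% of all loci, and 0 were higher, against 7.68%. At an unadjusted p under 0.05 there were 8 of 34 (23.5%), against 27.0% of all loci. The last share is near the background, and the first count rests on 2 loci. The log2 fold change of border zone over sham was -0.68 (SE 0.21, adjusted p = 0.0443 by edgeR) at chr1:189834251-189835750 of the Esrrg window and -0.58 (SE 0.18, adjusted p = 0.0468 by edgeR) at chr15:85554251-85556250 of the Ppara window. Both were lower in the border zone on 3 of 3 days. DESeq2 with the same block called 0 of 34, with 8 at an unadjusted p under 0.05, and its adjusted p was 0.153 and 0.113 for these 2 loci. Over the alternative settings that joined regions by overlap, the adjusted p (edgeR or DESeq2) of the Esrrg locus ranged from 0.0381 to 0.997. That of the Ppara locus ranged from 0.00475 to 0.997. Loci joined by midpoints were left out of these ranges.

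At Ppargc1a 0 of 8 loci passed, 1 had an unadjusted p under 0.05, and the smallest adjusted p was 0.0797, at chr5:51866251-51869250 (log2 fold change -0.60, SE 0.22, by edgeR). The median log2 fold change was -0.14 at Ppargc1a, -0.08 at Ppara and -0.17 at Esrrg, against -0.01 over all loci, and 6 of 8, 6 of 10 and 11 of 16 values were below 0, against 50.8% of all. At Ppara the values ran from -0.61 to 0.69, with the first 4 loci of the window above 0 and the other 6 below. Of these 4, none passed, with adjusted p from 0.0588 to 0.351. Without day 4, whose nuclei and aligner differ from those of the later days, the same test called 6 of the 34 loci lower and 3 higher in the border zone, against 10.8% and 15.6% of all loci. The 3 higher ones were at the low end of the Ppara window, and the 6 lower ones were 2 at each gene. With day 7 left out 0 of 34 loci were called, with 6 at an unadjusted p under 0.05, and with day 14 left out 0 were called, with 4. Neither 3-day call was thus made without day 7 or without day 14.

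**Figure D3:**
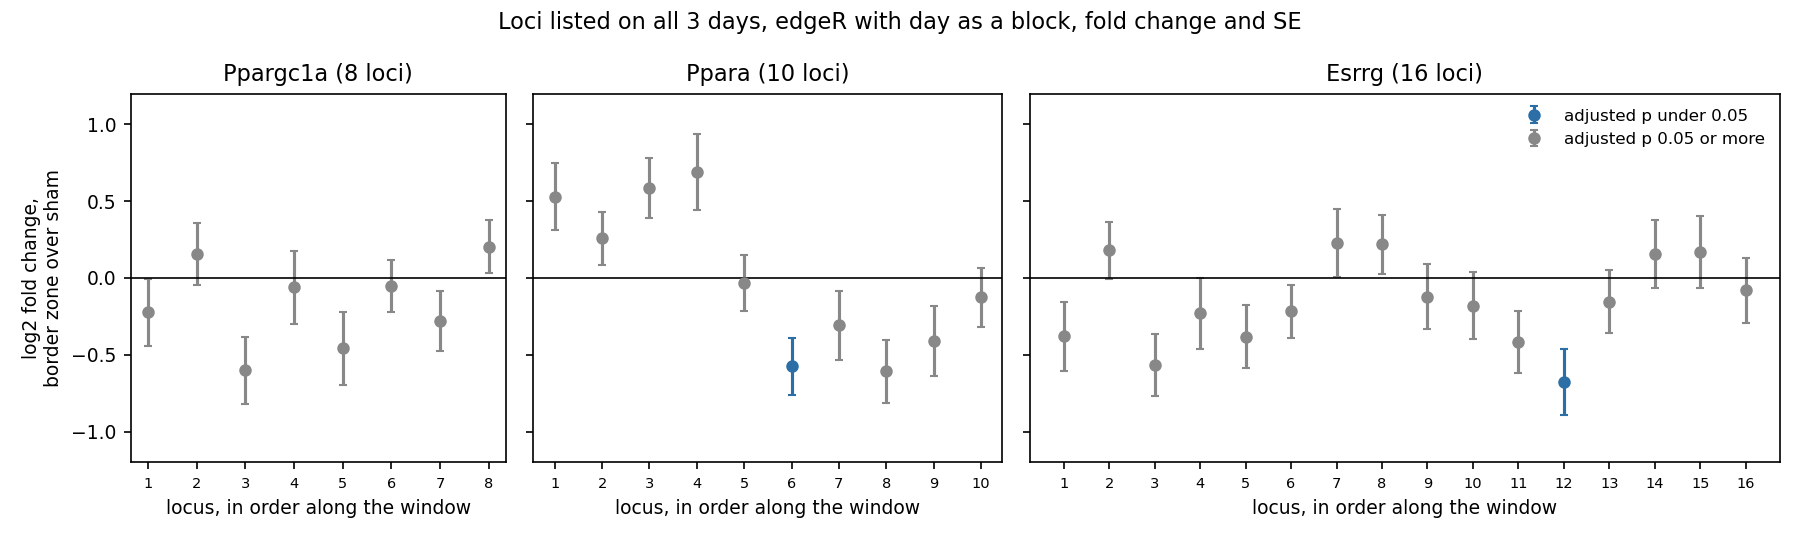
Log2 fold change of border zone over sham (points) with its SE (bars) from edgeR over the 3 days, for the 34 loci listed on all 3 days, in order along each window. Blue points have an adjusted p under 0.05; these are locus 6 at Ppara (-0.58) and locus 12 at Esrrg (-0.68).

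Over the 3 days, the log2 ratio of summed tags was -0.33 ± 0.40 at Ppargc1a, -0.19 ± 0.13 at Ppara and -0.36 ± 0.19 at Esrrg (mean ± SD, n = 3 days). An exact two-sided sign-flip permutation test over 3 days gave p = 0.5, 0.25 and 0.25, and 0.25 is the smallest p that this design allows. Relative to the median of all listed regions of the day, the means were -0.26 ± 0.36, -0.12 ± 0.05 and -0.29 ± 0.20. Medians of all loci listed on all 3 days were lower than those of all listed regions, at -0.18, -0.39 and -0.12 on days 4, 7 and 14. At Ppargc1a the SD exceeded the size of the mean, with log2 ratios of 0.01, -0.77 and -0.23 at days 4, 7 and 14.

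The level of each gene in the 6 libraries was taken as its share of the tags of all loci listed on all 3 days. At Esrrg, 16 loci held 72.1 border zone and 72.3 sham tags per 100000 on day 4, then 35.7 and 43.8 at day 7 and 36.5 and 46.8 at day 14. At Ppargc1a, 8 loci held 53.6 border zone and 50.1 sham on day 4, then 29.1 and 40.5 at day 7 and 29.7 and 32.8 at day 14. The listed bases differ by day, with 25, 17.5 and 18 kb at Esrrg and 14, 12 and 10.5 kb at Ppargc1a on days 4, 7 and 14. Per listed kb, Esrrg had 2.89 border zone and 2.89 sham tags per 100000 at day 4, then 2.04 and 2.501 at day 7 and 2.03 and 2.60 at day 14. Ppargc1a had 3.83 and 3.58, 2.43 and 3.38, and 2.83 and 3.12 per listed kb. Both genes thus had their highest value on day 4 in border zone and sham alike, with and without division by the listed bases. At Ppara, 10 loci held 42.1 border zone and 44.3 sham on day 4, then 52.5 and 56.7 at day 7 and 42.4 and 41.9 at day 14. The high value of day 7 rests on chr15:85538751-85542250, which held 510 border zone and 655 sham tags on that day. In a comparison added after the data were seen, levels without it were 35.4 and 38.5 at day 4, then 26.7 and 35.5 at day 7 and 40.6 and 41.1 at day 14, so day 7 was then the lowest. Counting intervals of border zone and sham did not overlap on days 7 and 14 at Ppargc1a (26.8 to 31.6 against 38.3 to 42.8, and 28.5 to 31.0 against 31.7 to 33.9). The same held at Esrrg (33.1 to 38.4 against 41.5 to 46.2, and 35.1 to 37.9 against 45.4 to 48.1). At Ppara, with all 10 loci, they overlapped on every day. These intervals cover counting error only, and no share over other windows of this size was computed. Among all loci listed on all 3 days, intervals of the listed fold lay below 1 at 44.0% on day 7 and 40.4% on day 14. They lay above 1 at 13.7% and 21.9%. Nuclei of day 4 were obtained and their reads aligned in another way than those of days 7 and 14, so day and method cannot be told apart in these levels.

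**Figure D4:**
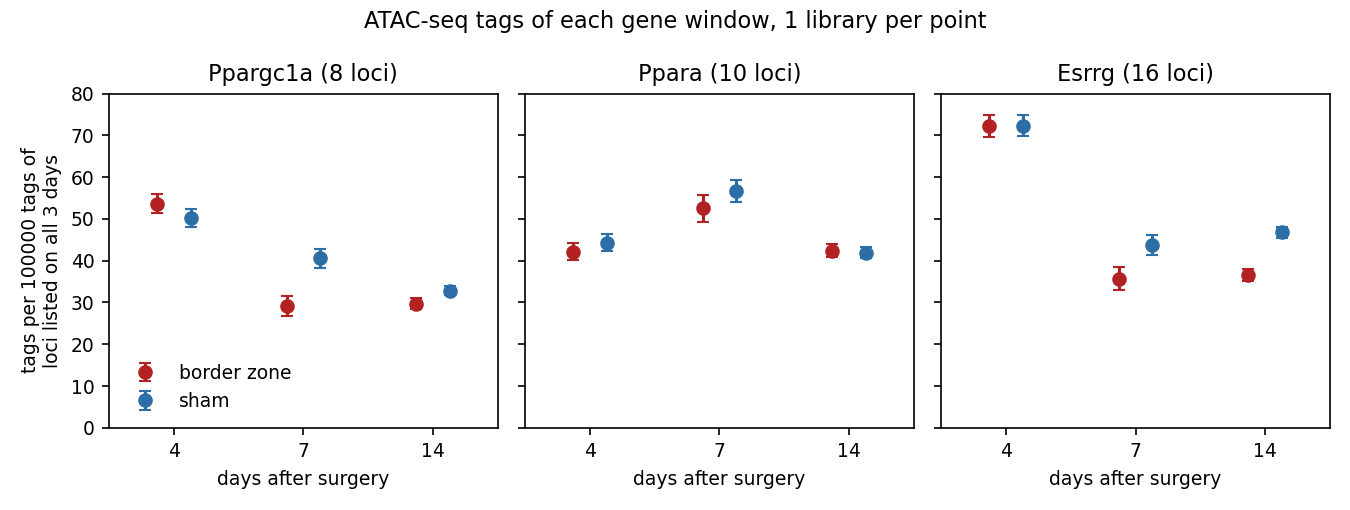
Whole ATAC-seq tags of each gene window per 100000 tags of all loci listed on all 3 days (y axis) by day after surgery (x axis), for border zone (red) and sham (blue); each point is 1 library and bars are exact 95% counting intervals. At Esrrg both conditions lie at about 72 on day 4, and border zone lies below sham on days 7 and 14.

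Many places of these windows were listed on day 4 alone. This held for 11 of 22 loci at Ppargc1a, 4 of 15 at Ppara and 14 of 34 at Esrrg, which is 40.8% of the 71, against 29.3% of all 60847 loci. Of the 71, 0 were listed on day 7 alone, against 5.95% of all loci, and 2 (2.82%), both at Esrrg, on day 14 alone, against 9.92%. Loci listed on day 4 alone had medians of 51 border zone and 38 sham tags at Ppargc1a, 81 and 75 at Ppara, and 55.5 and 61 at Esrrg. Loci of all 3 days had medians of 266 and 264, 121.5 and 154, and 135 and 149 on that day. The smallest tag number at which a difference was called was 35, 50 and 150 at days 4, 7 and 14, and a place that is not listed has no measured value.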

How the data were processed

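ATAC-seq was measured in 6 libraries, 1 border zone and 1 sham library on each of days 4, 7 and 14. Per the submitters' processing notes, the authors aligned reads to mm9 with Bowtie2 (day 4) or BWA (days 7 and 14) and used bedtools; for the region caller and its thresholds, the sources used here give nothing. Per the file headers, each deposited list holds sham tags and border zone tags per region. Sham tags are deposited counts. Border zone tags are a deposited signal that the authors scaled, except in the day 4 list of regions that did not differ. Of 85106 scaled values, 97.7% were a whole multiple of 1 of a few factors per day (relative tolerance 0.001%), 1998 were sums of such terms and 1 was approximate.

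Regions were assigned to a gene by overlap with its window and joined across days into loci when they overlapped by at least 1 bp. Whole tags of the 19733 loci listed on all 3 days entered edgeR 4.0.16 (TMM, quasi-likelihood test, day and condition, 2 residual degrees of freedom, Benjamini-Hochberg adjustment), which was tested on simulated data first. The SE is the absolute log2 fold change over the square root of F. Libraries of 1 day form the block, since their labels share the day. DESeq2 1.42.0, other scalings, filters, joining rules and days left out were alternatives. Whether libraries came from separate animals is not stated, so p-values reflect these libraries' spread, which may be technical. No molecular identifiers were used, so tags are not independent molecules.

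Named loci were those past the 3-day test, with the most tags, or called on 2 or more days, the widest regions, and others singled out after their values were seen. The windows, tests and lists were chosen with earlier results of these data known. Related metabolic genes and cell type markers were not analysed here, since no mm9 annotation was used. Sequences and gene lengths come from RefSeq (GRCm38.p6), and all 3 genes matched by symbol; no coordinates were carried between builds. 0 columns of unmapped samples were used.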

Additional observations from a re-analysis of the deposited data

Results flagged for a closer look

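At 3 loci the counting interval of the fold of border zone over sham lay below 1 on one day and above 1 on another. This was 8.82% of the 34 loci of the windows listed on all 3 days, against 7.51% of all 19733 such loci, so the share is near that of all loci. The difference between days was not tested, since each day has 1 library per condition. At chr5:51908751-51909750 in the Ppargc1a window the fold was 0.851 (0.642 to 1.125) on day 4, 0.388 (0.212 to 0.675) on day 7 and 1.225 (1.011 to 1.482) on day 14. At chr15:85546251-85549250 in the Ppara window it was 0.794 (0.668 to 0.943) on day 4, 0.643 (0.498 to 0.825) on day 7 and 1.154 (1.033 to 1.289) on day 14. At chr1:189901251-189902750 in the Esrrg window it was 1.342 (1.043 to 1.732) on day 4, 0.790 (0.501 to 1.226) on day 7 and 0.699 (0.545 to 0.894) on day 14. As listed, the first and second loci thus had more border zone than sham tags on day 14, and the third on day 4. The day 14 interval of the first began close to 1, at 1.011. The third had 106 whole border zone tags on day 14, listed as 125 with a factor of 1.18. Most values of that day had a factor of 1.37. Day 14 intervals were not recomputed with 1 factor for the day, so the count of 3 loci holds for the listed values only.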

How the results depend on the processing

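No called value changed sign. With 1 median factor per day, the log2 ratio of summed tags was 0.10 at Ppargc1a, -0.0877 at Ppara and -0.0595 at Esrrg on day 4, and -0.62, -0.18 and -0.37 on day 7. With 1 factor from summed tags, it was 0.12, -0.0699 and -0.0417 on day 4. Leaving out the region with the most tags of each window and day gave -0.63 at Ppara on day 7, below the -0.47 at Esrrg, and 0.0337 on day 14, against -0.08 with it. At a fold of at least 2, the windows kept 2 sham-higher regions on day 4, and 1 border zone-higher and 1 sham-higher region on day 14. Sham-higher loci of the 3-day edgeR test were 2; there was 1 with DESeq2 size factors and 1 with midpoints within 250 bp, and DESeq2 gave 0. A minimum of 50 tags left 32 of the 34 loci, with 1 border zone-higher and 0 sham-higher. With no replicate block, so without pairing libraries by day, 0 of 34 and 0 of all 19733 loci were called, and 0 of 34 had an unadjusted p under 0.05. Leaving out 1 day gave between 0 (without day 7 or 14) and 6 sham-higher loci (without day 4), and between 0 and 3 border zone-higher ones. The cause of these changes was not tested. For window sums, 3-day means and counts over the 3 genes, 74 alternative values were scored as unchanged and 24 as moved. Of the other values, 114 were scored as unchanged, 11 lost and 2 gained a call, and 15 moved. Unchanged includes counts near their main value and uncalled loci whose sign changed. The log2 fold change at chr15:85546251-85549250, for example, went from -0.03 to 0.08 without day 4, uncalled in both. Library depth is unknown here, and day 7 has the fewest listed tags.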
